A study of Mus musculus with 4 samples.

Results

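Chemokines and chemokine receptors were examined in whole brains of mouse fetuses after ethanol injection of their mothers. The members were the genes of an Affymetrix whole-transcript array whose probe set carries a single symbol made of Ccl, Cxcl, Ccr or Cxcr and a number, together with Cx3cl1, Xcl1, Xcr1 and Ackr3. This gave 57 probe sets for 52 genes, of 19938 genes with a probe set of their own, and where a gene had more than 1 probe set the brightest was used. The 34 ligands and 18 receptors were split at a mean value of 7 on the log2 scale, which 16 of them exceeded and 36 did not. The closest on each side were Cxcl17 at 7.05 and Ccr10 at 6.96. The genes Ccl21a, Ccl21b, Ccl21c, Ccl21d, Ccl27a and Ccl27b share their probe sets with each other or with further genes and are not members.

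All fetuses were of the inbred strain C57BL/6J and were taken at embryonic day 16. The ethanol group came from females injected with 2.5 g ethanol per kg in saline on gestational days 14 and 16, and the control group from females injected with an equal volume of saline alone. Each array held pooled brain RNA of 3 mice, with 2 ethanol arrays and 2 control arrays from 12 mice in all, and the sex of the fetuses is given as unknown. The labels do not say which litters went into a pool, so a p-value measures only the spread between these pools. In pooled whole brain, a lower number of cells of a type and less RNA per cell cannot be told apart.

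Chemokines are small secreted proteins that attract cells by binding receptors coupled to G proteins, and they are named for the spacing of their first cysteines. In the developing brain the chemokine Cxcl12, made largely by the meninges, acts through its receptor Cxcr4 on Cajal-Retzius cells and on migrating interneurons, while the atypical receptor Ackr3 takes Cxcl12 up and clears it. Cx3cl1 is made by neurons and binds Cx3cr1, the receptor that marks microglia. Most other chemokines are scarce in resting tissue and are induced in macrophages, glia or vessel cells through NF-kB and interferon signalling.

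The arrays were on a like scale, with medians of 8.01 to 8.04 over all probe sets, but they differed at the dim end, where the lower quartile was 6.55 in ethanol 1 and 6.45 to 6.47 in the other arrays. The 10 brain tissue markers, such as the neuronal tubulin Tubb3 and the radial glia protein Fabp7, averaged 11.6 on each array. Within this list Tubb3 itself stood at -0.38 ± 0.11 and met the rule of fold and unadjusted p given below, and the neuronal factor Neurod6 stood at 0.13 ± 0.08. Skeletal muscle genes were highest in control 1 and next highest in ethanol 2. The mean log2 level of 12 such genes was 7.32 and 8.58 in ethanol 1 and ethanol 2, against 9.99 and 7.29 in control 1 and control 2. Their summed linear signal was 2162 and 7514 in the ethanol arrays, against 21659 and 2120 in the control arrays. The muscle regulator Myog had a difference of -0.09 ± 0.08 and the muscle troponin Tnnc2 one of -0.55 ± 0.51.

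At an adjusted p under 0.05 limma called 0 of the 52 members, whose smallest adjusted p was 0.980, and 0% of all genes. At an unadjusted p under 0.05 there were 4 members (Ccl3, Ccl5, Cxcl10 and Cxcl12), where 2.94% of all genes lay. A fold of at least 1.2 together with that p, which 1.02% of all genes met, was met by 2 members. They were Ccl3, higher in ethanol as were 0.481% of all genes by that rule, and Cxcl12, lower in ethanol as were 0.537%. The groups did not overlap in 13 members, beside 31.4% of all genes. Both ethanol arrays lay above both control arrays in 11 members, a pattern seen in 17.4% of all genes. Both lay below the control arrays in 2 members (Cxcl12 and, barely, Ackr3), as in 14% of all genes. The median log2 difference of the members was 0.07, beside 0.01 over all genes. It was -0.01 without ethanol 1, 0.15 without ethanol 2 and 0.03 after quantile normalization was applied again.

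**Figure D1:**
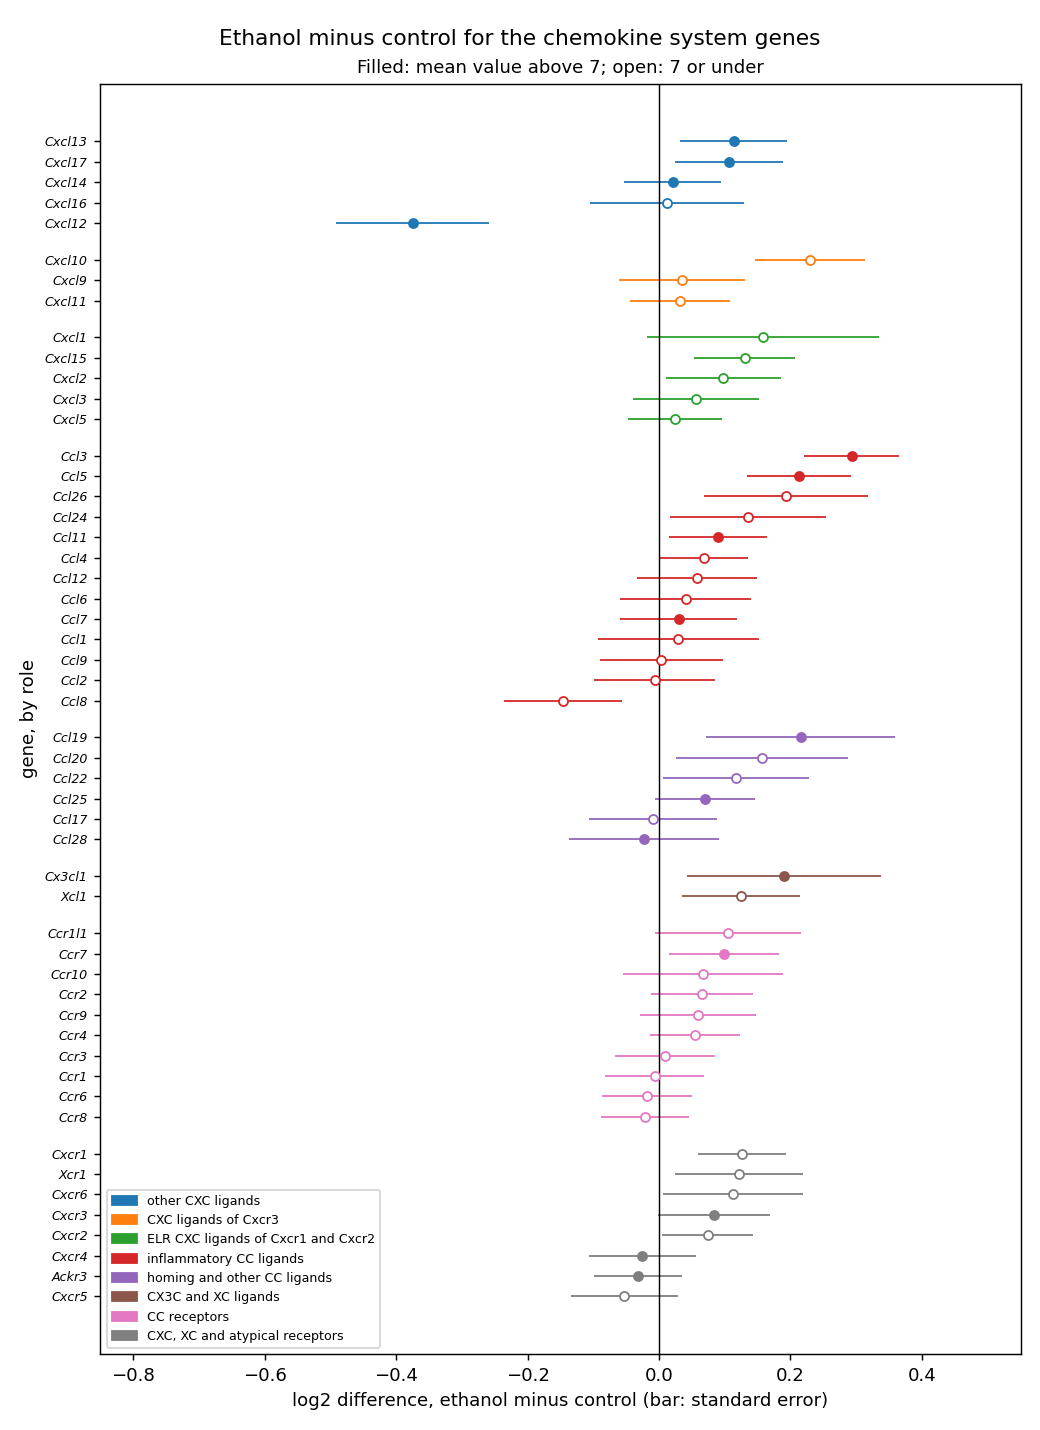
Log2 difference of ethanol minus control for all 52 chemokine and receptor genes, grouped and coloured by role, with bars for the standard error from limma (2 arrays per group). Filled points have a mean value above 7 and open points do not. Cxcl12 lies farthest to the left at -0.37 and Ccl3 farthest to the right at 0.29.

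Cxcl12, the chemokine of the meninges, was the member with the largest difference, and its value was lower in ethanol. It stood at 8.50 and 8.65 in ethanol 1 and ethanol 2, against 9.09 and 8.80 in control 1 and control 2. The groups did not overlap, and control 1 was the highest array. The log2 difference was -0.37 ± 0.12 (SE, 2 arrays per group), a fold of 0.771, with a 95% interval of -0.66 to -0.09 that is not adjusted for the number of genes. By limma the unadjusted p was 0.0197 and the adjusted p 0.980. Without control 1 the difference was -0.23 ± 0.11, and Cxcl12 then no longer met the rule of fold and unadjusted p. It was also lost from that rule without ethanol 1, at -0.30 ± 0.14. With 1 array left out its adjusted p by limma ranged from 0.307 to 1.

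Markers of the cells that surround brain and vessels were measured beside it. The mean log2 level of 12 pericyte, fibroblast and meningeal markers was 8.95 and 9.36 in ethanol 1 and ethanol 2, against 9.82 and 9.02 in control 1 and control 2. All 12 had a difference below 0 (median -0.21), beside 7290 of the 12966 genes above 7, where all 12 lay. All 12 were highest in control 1, beside 4523 of those 12966 genes. Against control 2 alone, the median difference of the 12 was -0.05 for ethanol 1 and 0.12 for ethanol 2. The summed linear signal of the list ranged from 8670 to 10836 in ethanol and from 9335 to 15176 in control. In this list 1 gene met the rule of fold and unadjusted p, Ptgds, the prostaglandin D synthase of the meninges, at -0.42 ± 0.10. The pericyte proteoglycan Cspg4 stood at -0.21 ± 0.09. Of 10 endothelial markers, all above 7 in mean value, 9 lay below 0 (median -0.15), 8 were highest in control 1 and 0 met the rule of fold and unadjusted p. Mean levels were 9.34 and 9.39 in the ethanol arrays, against 9.59 and 9.40 in control 1 and control 2. Against control 2 alone, the median difference of these markers was -0.03 for ethanol 1 and 0.01 for ethanol 2. Their summed linear signal was 7570 and 7918 in ethanol against 8881 and 7830 in control. The endothelial tight junction protein Cldn5 stood at -0.17 ± 0.07 and the angiopoietin receptor Tek at -0.19 ± 0.08. The part of these markers, and of the muscle genes that were highest in control 1, in the Cxcl12 difference was not tested.

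**Figure D2:**
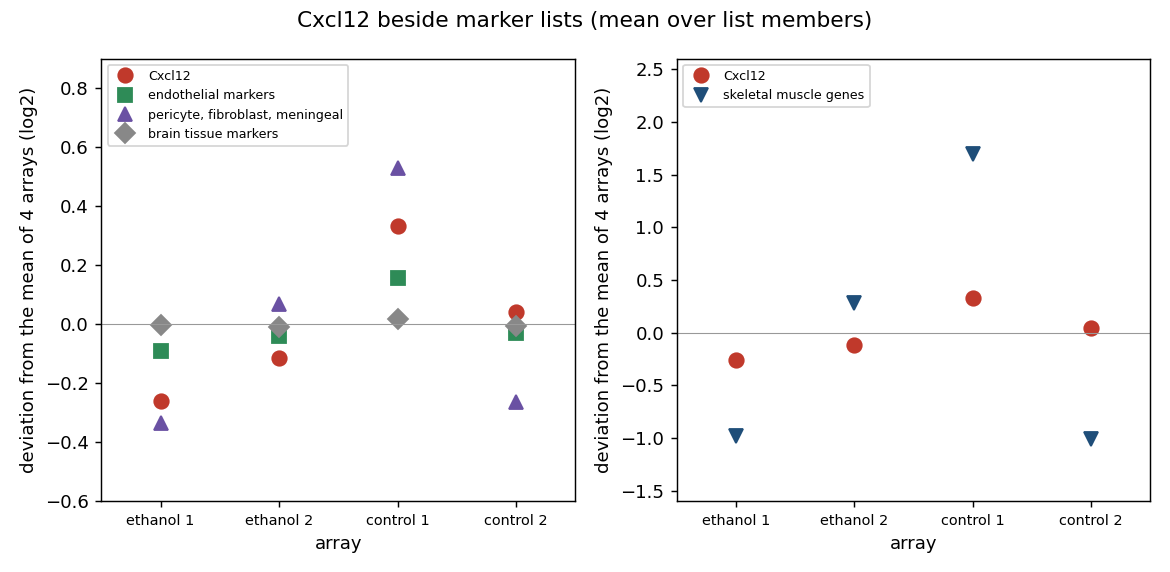
Deviation of each array from the mean of the 4 arrays (log2) for Cxcl12 and for the mean level of 4 marker lists, with muscle genes on a wider axis at the right. Control 1 is the highest array for Cxcl12 and for each list shown. The pericyte, fibroblast and meningeal list is lowest in ethanol 1, at a mean of 8.95, and the muscle list lowest in control 2, at 7.29.

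Both receptors of Cxcl12 had differences whose intervals include 0. Cxcr4, the signalling receptor, stood at 9.60 and 9.44 in ethanol 1 and ethanol 2, against 9.53 and 9.56 in control 1 and control 2, so the ethanol arrays lay on either side of the control arrays. Its log2 difference was -0.03 ± 0.08, with a 95% interval of -0.23 to 0.18. Ackr3, the scavenger of Cxcl12, stood at 7.28 and 7.27 in the ethanol arrays, against 7.33 and 7.28 in the control arrays. The ethanol arrays lay just below the control arrays, and the difference was -0.03 ± 0.07 (95% interval -0.20 to 0.13). The cells on which this pair acts were represented by 7 Cajal-Retzius markers, with a median difference of 0.01, and 9 interneuron lineage markers, with a median of 0.02. Of the interneuron list 2 genes met the rule of fold and unadjusted p, the neuropeptides Sst at 0.42 ± 0.11 and Npy at 0.32 ± 0.12. Control 1 was the lowest array for both, and for 5 of the 9 genes in the list. The rule was met by 0 of the 7 Cajal-Retzius markers. Of the Cajal-Retzius list, the transcription factor Trp73 stood at 0.12 ± 0.09 and the calcium-binding protein Calb2 at 0.15 ± 0.16.

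**Figure D3:**
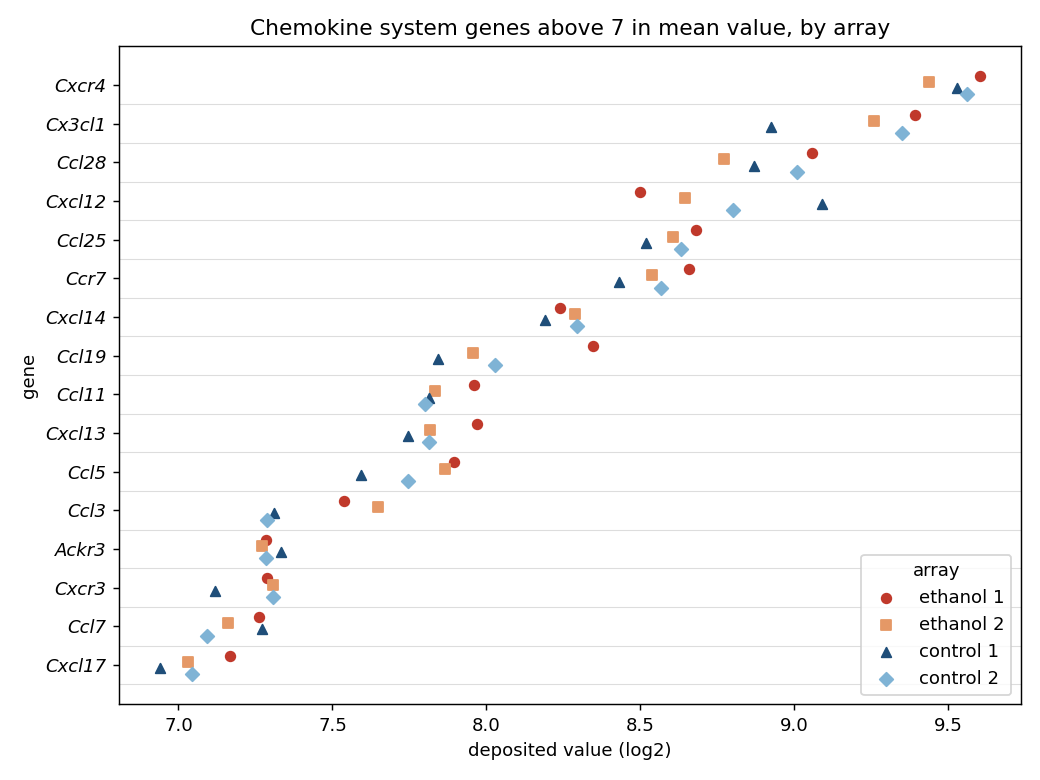
Deposited log2 value of the 16 members with a mean above 7, with 1 point for each array. The arrays of the groups are apart with ethanol lower for Cxcl12, and barely for Ackr3 (7.2836 in ethanol 1 and 7.2838 in control 2). With ethanol higher they are apart for Ccl3, Ccl5 and Ccl11, and barely for Cxcl13. They are mixed for the other genes, such as Cxcr4.

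Among the inflammatory ligands, Ccl3, a chemokine of activated macrophages and microglia that binds Ccr1, had the smallest p of all members. It stood at 7.54 and 7.65 in ethanol 1 and ethanol 2, against 7.31 and 7.29 in control 1 and control 2. Both ethanol arrays were above both control arrays, and ethanol 2, not ethanol 1, was the highest. The log2 difference was 0.29 ± 0.07 (SE, 2 arrays per group; 95% interval 0.11 to 0.47), a fold of 1.23, with an unadjusted p of 0.00771 and an adjusted p of 0.980 by limma. With any array left out it stayed between 0.24 and 0.35, and only without ethanol 2 did it miss the fold of 1.2. Ccl4, its neighbour and close relative, stood at 6.54 and 6.49 in the ethanol arrays, against 6.46 and 6.44 in the control arrays, a difference of 0.07 ± 0.07.

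Ccl5, a chemokine made by T cells, glia and other cells, was the next of this group. It stood at 7.90 and 7.87 in ethanol 1 and ethanol 2, against 7.59 and 7.74 in control 1 and control 2. The groups did not overlap, and control 1 was the lowest array. The difference was 0.21 ± 0.08 (unadjusted p = 0.0388, adjusted p = 0.980 by limma), and without control 1 it was 0.14 ± 0.10. The unadjusted p by limma was above 0.05 with any array but control 2 left out. Of all 13 inflammatory CC ligands, 11 had a difference above 0 and 2 below 0, and 4 had a mean above 7. Above 0 lay 73.6% of all genes at or under 7 and 43.8% of genes above 7. The median of the 13 was 0.06, with a range of -0.15 for Ccl8 to 0.29 for Ccl3. Ccl11, the eotaxin that attracts eosinophils, stood at 0.09 ± 0.07 and Ccl7, which draws monocytes, at 0.03 ± 0.09. The main monocyte attractant Ccl2 stood at -0.01 ± 0.09.

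Cxcl10, an interferon-induced ligand of Cxcr3, was the dim member with the smallest p. It stood at 6.47 and 6.29 in ethanol 1 and ethanol 2, against 6.16 and 6.13 in control 1 and control 2, below the lower quartile of each array. Ethanol 1 was the highest array and the groups did not overlap. The difference was 0.23 ± 0.08 (unadjusted p = 0.0357, adjusted p = 0.980 by limma), with 0.14 ± 0.08 without ethanol 1. The other ligands of Cxcr3, Cxcl9 and Cxcl11, stood at 0.04 ± 0.10 and 0.03 ± 0.08. The receptor Cxcr3 itself, found on T cells, stood at 7.29 and 7.31 in the ethanol arrays, against 7.12 and 7.31 in the control arrays, a difference of 0.08 ± 0.09 that was -0.01 without control 1.

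The promoters of Cxcl10, Ccl3 and Cxcl12 are shown because these genes had the smallest p among dim members, the smallest p of all members and the largest difference. The sequences are from RefSeq (build GRCm38.p6), cover the 250 bases before the annotated start and run 5′ to 3′ along the gene. Capitals mark matches to an NF-kB-type motif (GGG, any 3 bases, TTCC), an interferon-type motif (GAAA, any 2 bases, GAAA), or a TATA box (TATAAA), each searched on both strands, and no matches of different motifs overlapped in these windows.
Cxcl10, chr5:92348890-92349139, minus strand: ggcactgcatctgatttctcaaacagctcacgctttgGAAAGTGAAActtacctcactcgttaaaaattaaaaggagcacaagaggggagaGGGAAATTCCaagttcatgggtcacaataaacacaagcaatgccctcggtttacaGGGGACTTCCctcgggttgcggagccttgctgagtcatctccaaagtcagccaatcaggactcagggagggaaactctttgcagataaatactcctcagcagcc
Ccl3, chr11:83649379-83649628, minus strand: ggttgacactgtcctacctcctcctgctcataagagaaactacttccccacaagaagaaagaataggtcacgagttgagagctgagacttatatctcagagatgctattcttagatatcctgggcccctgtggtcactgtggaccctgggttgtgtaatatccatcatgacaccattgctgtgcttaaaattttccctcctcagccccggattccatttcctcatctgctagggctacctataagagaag
Cxcl12, chr6:117168285-117168534, plus strand: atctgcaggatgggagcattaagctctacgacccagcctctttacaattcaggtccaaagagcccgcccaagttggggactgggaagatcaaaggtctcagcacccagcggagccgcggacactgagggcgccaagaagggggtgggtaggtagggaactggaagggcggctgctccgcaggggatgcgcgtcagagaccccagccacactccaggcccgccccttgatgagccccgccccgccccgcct
The Cxcl10 window holds 1 interferon-type match and 2 NF-kB-type matches, and the letters searched are not in the Ccl3 and Cxcl12 windows.

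A window was found for 38 of the 52 members, 40 windows in all. The NF-kB-type motif was in 9 of the 40 windows (22.5%), against 4.65% of 32851 windows of all genes, and the interferon-type motif was in 3 (7.5%), against 2.98%. The TATA box was in 13 (32.5%), against 12.4%. The 9 members with an NF-kB-type match were Ccl1, Ccl9, Ccl20, Ccr3, Ccr6, Cxcl1, Cxcl2, Cxcl3 and Cxcl10. The neighbouring neutrophil attractants Cxcl1, Cxcl2 and Cxcl3 share the same 10 letters (capitals, with 10 bases on each side), shown as the motif common to ligands whose arrays are given next.
Cxcl1, chr5:90891164-90891193, plus strand: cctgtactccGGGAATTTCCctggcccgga
Cxcl2, chr5:90903792-90903821, plus strand: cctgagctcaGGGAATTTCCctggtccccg
Cxcl3, chr5:90786018-90786047, plus strand: gagctgcgggGGGAATTTCCccagcccggg
A match is a run of letters and was not measured here as a bound site.

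The 5 neutrophil attractants grouped here as ligands of Cxcr1 and Cxcr2 all had a difference above 0 (median 0.10) and a mean of 7 or under. Of all genes at or under 7, 73.6% had a difference above 0. Cxcl1 stood at 7.19 and 6.64 in ethanol 1 and ethanol 2, against 6.75 and 6.76 in control 1 and control 2. Ethanol 1 was the highest array and ethanol 2 the lowest, so the groups overlapped. The difference of 0.16 ± 0.18 was -0.12 without ethanol 1 and 0.43 without ethanol 2. Cxcl2 and Cxcl3 stood at 0.10 ± 0.09 and 0.06 ± 0.10. The receptors Cxcr1 and Cxcr2, with means of 6.29 and 5.64, stood at 0.13 ± 0.07 and 0.07 ± 0.07. For each receptor both ethanol arrays lay above both control arrays, a pattern seen in 22.8% of all genes at or under 7.

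Cx3cl1, the membrane-bound chemokine of neurons, stood at 9.39 and 9.26 in ethanol 1 and ethanol 2, against 8.92 and 9.35 in control 1 and control 2. Control 1 was low, and the other arrays lay close together. The difference of 0.19 ± 0.15 was -0.02 ± 0.11 without control 1 and 0.40 ± 0.11 without control 2. Its receptor Cx3cr1, which is not a member, stood at 8.76 and 8.50 in the ethanol arrays, against 8.84 and 8.50 in the control arrays, a difference of -0.04 ± 0.14. The XC ligand Xcl1, at a mean of 6.49, had a difference of 0.12 ± 0.09.

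Among ligands that guide lymphocytes and other cells in resting tissue, Ccl19, a ligand of Ccr7, stood at 8.35 and 7.96 in ethanol 1 and ethanol 2, against 7.84 and 8.03 in control 1 and control 2. Ethanol 1 alone was high. The difference was 0.22 ± 0.14, and it was 0.02 without ethanol 1 and 0.41 without ethanol 2. Its 5 probe sets gave differences of 0.20 to 0.22, of which 2 hold identical values. The receptor Ccr7 stood at 8.66 and 8.54 in the ethanol arrays, against 8.43 and 8.57 in the control arrays, a difference of 0.10 ± 0.08. Ccl25, a ligand of Ccr9, stood at 0.07 ± 0.08 at its brighter probe set and at -0.15 ± 0.09 at the other, so its direction was not the same at both. Ccl28, a ligand of Ccr10 and Ccr3, stood at -0.02 ± 0.11.

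The remaining CXC ligands above 7 had differences whose 95% intervals include 0. Cxcl14, which is expressed in brain and skin, stood at 8.24 and 8.29 in ethanol 1 and ethanol 2, against 8.19 and 8.30 in control 1 and control 2, with a difference of 0.02 ± 0.07. Cxcl13, the B cell attractant that binds Cxcr5, stood at 7.97 and 7.82 in the ethanol arrays, against 7.75 and 7.81 in the control arrays. Its groups were barely apart, with ethanol higher, and the difference of 0.11 ± 0.08 was 0.04 without ethanol 1 and 0.19 without ethanol 2. Cxcl17 stood at 0.11 ± 0.08, with 0.04 without ethanol 1 and 0.17 without ethanol 2.

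The 36 members with a mean of 7 or under lay mostly above 0, as did dim genes in general. Of these members 29 had a difference above 0 (80.6%, median 0.06), beside 73.6% of the 6972 genes at or under 7 (median 0.04) and 43.8% of the 12966 genes above 7. Ethanol 1 was the highest array in 30 of the 36 (83.3%), against 66.2% of all genes at or under 7. Set against the mean of the control arrays, ethanol 1 was higher in 32 of the 36 (88.9%), beside 82.9% of all genes at or under 7. Ethanol 2 was higher in 11 of the 36 (30.6%), beside 45.1%. The higher values of the dim members lay in ethanol 1, as did those of dim genes in general. The rule of fold and unadjusted p was met by 0 of the 36, beside 0.416%. After quantile normalization was applied again, 22 of the 36 lay above 0 (median 0.01), beside 49% of all dim genes. Both ethanol arrays lay above both control arrays in 7 of the 36, beside 22.8% of genes at or under 7, and below them in 0, beside 4.98%.

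**Figure D4:**
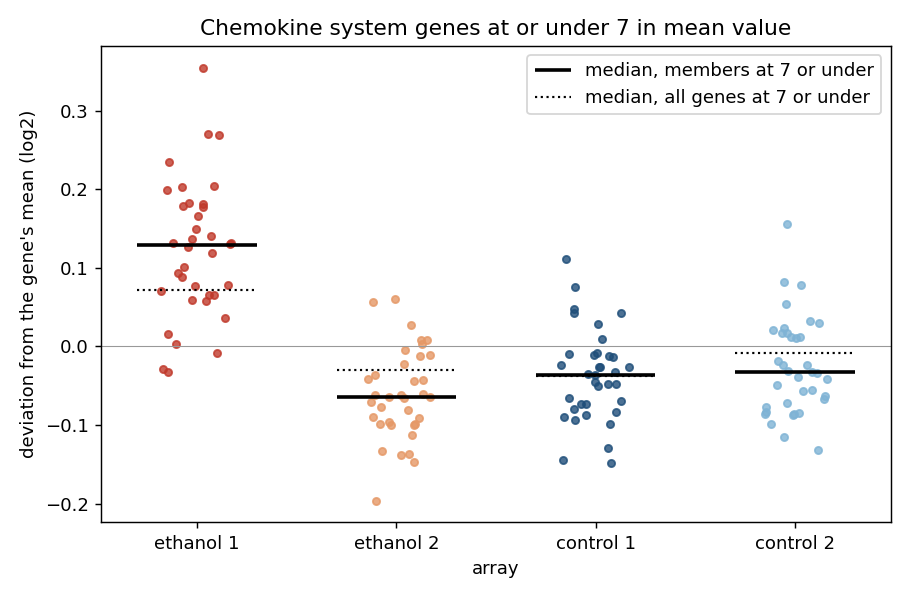
Deviation of each array from the gene's own mean (log2) for the 36 members with a mean of 7 or under, with 1 point for each gene. Solid bars are the medians of these members (0.13 in ethanol 1 and -0.06 in ethanol 2, against -0.04 and -0.03 in control 1 and control 2) and dotted bars the medians of all 6972 genes in that range (0.07 in ethanol 1).

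Of the 16 members above 7, 12 had a difference above 0 (median 0.09), beside 43.8% of genes above 7 (median -0.01). Ethanol 1 was the highest array in 10, beside 26.2% of genes above 7, and control 1 the lowest in 9 of the 16, beside 3580 of the 12966 genes above 7. The rule of fold and unadjusted p was met by 2, beside 1.34%. The groups were apart with ethanol higher in 4, beside 14.4%, and with ethanol lower in 2, beside 18.8%. Set against the mean of the control arrays, ethanol 2 was higher in 11 of the 16, beside 45.6% of genes above 7, and ethanol 1 in 13 of the 16, beside 43.8%. With quantile normalization applied again, 14 of the 16 lay above 0 (median 0.09), beside 51.8% of genes above 7. Over all 52 members, 41 lay above 0 (78.8%), beside 54.2% of all genes. Dim genes made up 36 of the 52 members but 6972 of all 19938 genes, so these shares are not matched for brightness. Without ethanol 1 the count was 22 of 52 (42.3%), beside 45.4% of all genes.

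Of the 34 ligands 29 had a difference above 0 (median 0.07), and of the 18 receptors 12 did (median 0.06). Among 10 CC receptors 7 lay above 0, from -0.02 to 0.10, and of these the monocyte receptor Ccr2 stood at 0.06 ± 0.08 and Ccr1 at -0.01 ± 0.07. Many of the genes sit side by side in the genome. In the run of Ccl5, Ccl9, Ccl6, Ccl3 and Ccl4 all 5 were above 0, from 0.00 to 0.29, and in the run of Ccl2, Ccl7, Ccl11, Ccl12, Ccl8 and Ccl1 there were 4 of 6, from -0.15 to 0.09. In the run of Cxcl3, Cxcl15, Cxcl1 and Cxcl2 all 4 were above 0, from 0.06 to 0.16. Beside these counts, 73.6% of all genes at or under 7 and 43.8% of genes above 7 lay above 0.

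Of 10 further chemokine system genes outside the member rule, 5 lay above 0 and 0 met the rule of fold and unadjusted p. Ackr1, a scavenging receptor of vessels and red cells, stood at 11.22 and 11.17 in ethanol 1 and ethanol 2, against 10.88 and 11.05 in control 1 and control 2, a difference of 0.23 ± 0.08. Pf4, a chemokine of platelets and macrophages, stood at -0.27 ± 0.14, with control 1 the highest array. Of 23 receptor signalling partners 11 lay above 0, and the receptor kinase Grk6 stood at -0.16 ± 0.07 and the G protein regulator Rgs1 at 0.16 ± 0.09. Of 20 inducers and NF-kB and interferon factors 14 lay above 0 (median 0.05), and ethanol 1 was the highest array in 12. Only 7 of the 20 had a mean above 7, and of all genes at or under 7 these shares were 73.6% and 66.2%. Il1b stood at 0.19 ± 0.12, with 6.56 and 6.22 in ethanol 1 and ethanol 2, against 6.18 and 6.22 in the control arrays. Tnf stood at 0.15 ± 0.12, with 6.35 and 6.04 in ethanol 1 and ethanol 2, against 6.01 and 6.08. Among the signalling partners and the inducers 0 genes met the rule of fold and unadjusted p.

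Markers of the cells that make or read these chemokines were measured beside them. The 16 microglia and macrophage markers had mean levels of 7.70 and 7.66 in ethanol 1 and ethanol 2, against 7.77 and 7.59 in control 1 and control 2. Of these, 9 lay above 0 (median 0.02), 12 had a mean value above 7, and the summed linear signal was 4273 and 4079 in ethanol against 4703 and 3872 in control. Ptprc, the common leukocyte antigen, stood at 0.11 ± 0.07 and Mrc1, a receptor of border macrophages, at -0.19 ± 0.17. Of 11 markers of other leukocytes 7 lay above 0 (median 0.02) and 1 had a mean value above 7, with a summed linear signal of 905 and 842 in ethanol against 823 and 873 in control. The T cell genes Cd3e and Cd8a stood at 0.17 ± 0.11 and 0.12 ± 0.08. The part of these markers in the values of Ccl3 and Ccl5 was not tested, and 0 genes of either list met the rule of fold and unadjusted p.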

How the data were processed

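RNA of whole fetal brains was hybridised to 4 arrays after Trizol extraction and biotin labelling, per the labels' protocols. The deposited table holds a log2 value for each of 35556 probe sets on each array, with 0 columns of other samples. The base of the logarithm was inferred from the span of the deposited log2 values. The submitters' processing notes name Partek 6.6. How background was corrected and arrays were normalized, which can set differences at the dim end, was not stated in the labels.

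Symbols came from the platform annotation (21789 probe sets with 1 symbol, 1621 with several, 12146 with none) and were updated by Entrez identifier through a GRCm38.p6 gene table, in which 21698 matched. Limma 3.58.1 in R 4.3.3 (lmFit and eBayes, 2 residual degrees of freedom) compared ethanol with control over 19938 genes. Benjamini-Hochberg adjustment was over all of them. The fit was checked on simulated data with the same spread for every gene, so the check does not cover the unequal spread of measured genes. The median standard error by limma was 0.079, and the number of arrays limits the precision. Members and gene lists were chosen with earlier results of these data known. Text names every member above 7, those with an unadjusted p under 0.05 and a fold of at least 1.2, the brightest member of each role and the 2 genes of each other list with the smallest p. Further members were named after their values were seen. Alternatives were other scalings, units, variance models, a block, a filter on dim genes and leaving out each array.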

Additional observations from a re-analysis of the deposited data

How the results depend on the processing

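The count of members past the adjusted threshold was 0 under all 13 alternatives run, and over all genes it ranged from 0 to 4 with an array left out. The 203 genes with a fold of at least 1.2 and an unadjusted p under 0.05 became 993 over all probe sets, 37 without shared variance, 3 at a fold of 1.5, and 142 to 1265 with an array left out. The 2 members past that rule, Ccl3 and Cxcl12, became 1 without shared variance (Ccl3) and 0 at a fold of 1.5. Cxcl12 stood at -0.30 without ethanol 1 and -0.23 without control 1, and Ccl3 at 0.35 and 0.31. Without ethanol 2 Cxcl12 stood at -0.45, and Ccl19, Ccl20, Ccl24, Ccl26, Cxcl1 and Cxcl10 lay at 0.30 to 0.43. The members' median without ethanol 2 was 0.15, beside 0.025 over all genes and 0.093 over genes at or under 7. Without control 2 Ccl3, Ccl5 and Cx3cl1 stood at 0.28, 0.29 and 0.40, and Cxcl12 at -0.52. The cause of these shifts was not tested. With an array left out, the lone array of its group is assumed to vary like the other group.

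The 41 members above 0 became 12 among genes above 7, where 16 members enter, and 22 to 45 with an array left out. The 22 were without ethanol 1, beside 45.4% of all genes, and the 45 without ethanol 2, beside 57.5%. The 13 members whose groups do not overlap became 6 among genes above 7, and 24 to 44 with an array left out, where a group of 1 array overlaps less by construction. A split at 6.5 or 8 put 27 or 8 members above it. Quantile normalization again turned Cxcr4 to 0.007 and Ccl28 to 0.0106, and the mean of its probe sets turned Ccl25 to -0.0394. With an array left out, the members' median ranged from -0.0098 to 0.1503. Among single members the range was 0.027 to 0.153 for Ccl11, 0.0316 to 0.166 for Ccr7, 0.0376 to 0.1897 for Cxcl13, 0.039 to 0.1746 for Cxcl17, -0.1065 to 0.0564 for Cxcr4, -0.0225 to 0.4027 for Cx3cl1, -0.1656 to 0.12 for Ccl28, -0.0322 to 0.074 for Cxcl14, -0.0094 to 0.1771 for Cxcr3, -0.0586 to 0.1185 for Ccl7 and -0.1167 to 0.4341 for Cxcl1. No label says that replicate numbers pair arrays. With the replicate block 0 members passed the adjusted threshold and 2 the rule of fold and unadjusted p, as without it. Of the 4 members with an unadjusted p under 0.05, Ccl5 and Cxcl10 were lost with the block (unadjusted p = 0.0770 and 0.0556 by limma), over all probe sets (0.0573 and 0.0538) and without shared variance, where Cxcl12 was lost too, and Ccl5 also with a variance trend (0.0636). Ccl3 was under 0.05 in all 13 alternatives. Deviations of same-numbered arrays correlated at -0.484.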
